A study of Mus musculus with 9 samples.

Results

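A group of 6 enzyme genes that take threonine and glycine apart in mitochondria was followed in mouse embryonic stem (ES) cells of the V6.5 line. They are the 6 rows, out of 52550 gene identifiers in the deposited exon count table, whose Ensembl identifier maps to Tdh, Gcat, Gldc, Amt, Gcsh or Dld. All 6 had enough reads to be tested. The data hold 5 libraries labelled KLF2/KLF4 DKO, a double knockout of 2 Krüppel-like transcription factors, and 4 libraries labelled wildtype (WT). Every culture received 15% FBS, LIF and 2i (inhibitors of GSK and MEK). The labels name no clone, no deleted exon and no separate cultures, so p-values measure only the spread between these libraries, which may be technical.

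Threonine dehydrogenase, made from Tdh, oxidises threonine to an unstable aminoketone, and the ligase made from Gcat splits that product into glycine and acetyl-CoA. The glycine cleavage system then breaks glycine down and passes its alpha carbon to tetrahydrofolate, which feeds the synthesis of purines and thymidylate. Its parts are the P protein (Gldc, a decarboxylase), the H protein (Gcsh, which carries a lipoyl arm between the enzymes), the T protein (Amt, an aminomethyltransferase) and the L protein (Dld, which reoxidises the lipoyl arm and also serves the 2-oxoacid dehydrogenases). Mouse ES cells are known for a high level of threonine dehydrogenase and for their need of threonine in the medium. The human TDH gene is a pseudogene.

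Of the 6 genes, Gldc and Gcat fell and Amt rose in the libraries labelled DKO, while Tdh, Gcsh and Dld did not pass. That is 1 gene higher and 2 lower by edgeR's quasi-likelihood test at an adjusted p under 0.05, adjusted over all 11893 genes tested. Over all tested genes 23.9% were called higher and 24.0% lower, together 47.8%, so 3 of 6 is close to the share of the whole table and says nothing particular about the set. The median log2 fold change of the 6 was 0.00, against 0.01 over all tested genes. The groups did not overlap for Gldc, Gcat and Amt, and 37.4% of all tested genes had groups that did not overlap.

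Sequence upstream of the 3 genes that passed is shown because the knocked-out factors bind GC-rich motifs near promoters. Each window comes from RefSeq on build GRCm38.p6 (mm10 coordinates), reads 5′ to 3′ on the gene's strand and ends at the base before the gene's start, taken from whichever of RefSeq and GENCODE M21 begins further upstream. Capitals mark matches to CCNCNCCC, a KLF/SP-type motif, on either strand.
Gldc, chr19:30175442-30175691, minus strand: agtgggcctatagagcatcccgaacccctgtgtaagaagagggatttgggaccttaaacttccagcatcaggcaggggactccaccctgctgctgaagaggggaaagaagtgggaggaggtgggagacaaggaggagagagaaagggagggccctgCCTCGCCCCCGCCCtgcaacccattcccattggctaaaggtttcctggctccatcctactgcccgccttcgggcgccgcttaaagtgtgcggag
Gcat, chr15:79030624-79030873, plus strand: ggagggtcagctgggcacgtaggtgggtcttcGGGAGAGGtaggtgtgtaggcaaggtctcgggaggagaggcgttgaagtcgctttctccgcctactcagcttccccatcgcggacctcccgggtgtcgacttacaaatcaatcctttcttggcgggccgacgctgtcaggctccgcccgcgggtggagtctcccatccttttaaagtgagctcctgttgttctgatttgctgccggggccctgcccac
Amt, chr9:108296655-108296852, plus strand: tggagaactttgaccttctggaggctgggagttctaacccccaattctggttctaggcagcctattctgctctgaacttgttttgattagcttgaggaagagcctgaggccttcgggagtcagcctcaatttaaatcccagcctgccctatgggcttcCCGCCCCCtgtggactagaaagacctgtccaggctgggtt
The Gldc window held 2 overlapping matches covering 14 bases, and the Gcat and Amt windows 1 match each. Of 32851 RefSeq promoters, 45.9% held the motif in the same 250 bases, and 36.0% in 198 bases, the length of the Amt window. The windows of Gcsh and Dld held no match. For Tdh the promoter set held no entry, so no window of it was searched. AACNGGTT, a grainyhead-type motif, searched because the series title names GRHL2, was in none of these 5 windows and in 1.79% of all promoters over 250 bases. Matches describe letters only and do not show binding.

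Reads came from the 3′ ends of polyadenylated transcripts (QuantSeq 3′ mRNA-Seq, forward kit, 600 ng of total RNA per library), so counts scale little with gene length. Library totals ran from 6035642 to 7098530 counts. Levels are given as CPM, counts relative to TMM-scaled library totals (edgeR's cpm unit). Klf2 had 3750 to 4044 counts in the libraries labelled DKO, against 3042 to 3297 in WT, and Klf4 had 9385 to 10778, against 5085 to 6183. Reads of both targeted genes were thus more numerous in the libraries labelled DKO. Because 3′ reads outside a deleted part check nothing, each direction below is that of the library labels. ES cell markers were present in both groups, and of 11, all tested, 7 rose and 3 fell by edgeR, with log2 fold changes between -1.14 (Lin28a) and 0.97 (Dppa5a). Over all tested genes 23.9% were called higher and 24.0% lower. Sox2 rose to 492 ± 21.2 CPM in the libraries labelled DKO, against 299 ± 11.1 CPM in WT (SD, n = 5 and 4). Zfp42 and Tdgf1 fell with Lin28a. Pou5f1 had few reads and did not pass, at 21.5 ± 3.16 CPM in the libraries labelled DKO and 23.9 ± 0.552 CPM in WT. On the first principal component (69.2% of variance) the groups separated, and on the next (6.10%) DKO 3 stood at 23.1 and DKO 4 and DKO 5 at -13.5 and -14.0. Of 13 fibroblast markers 2 had enough reads to be tested, and by edgeR 1 fell (log2 fold change -1.43) and 1 did not pass (0.54). The sum of all 13 was 6.73 to 10.3 CPM in the libraries labelled DKO and 13.7 to 16.9 CPM in WT. Col6a1 and Lum were at 0 in all libraries. The sum of 10 primitive endoderm markers was 5.25 to 6.60 CPM in the libraries labelled DKO and 5.44 to 9.09 CPM in WT, although the 2 of them with enough reads went opposite ways. Sox7 rose to 2.99 CPM in the libraries labelled DKO, against 0.148 CPM in WT, and Dab2 fell to 0.447 CPM, against 3.62 CPM in WT. The lower level of each is near or under that of 3 counts in 1 library (0.423 to 0.497 CPM). The sum of 8 liver-type markers was 8.30 to 11.5 CPM in the libraries labelled DKO and 9.40 to 11.1 CPM in WT, with Alb at 0 throughout. The part of other cells in the results was not tested, and in bulk RNA fewer cells of a type and less RNA per cell cannot be told apart.

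**Figure D1:**
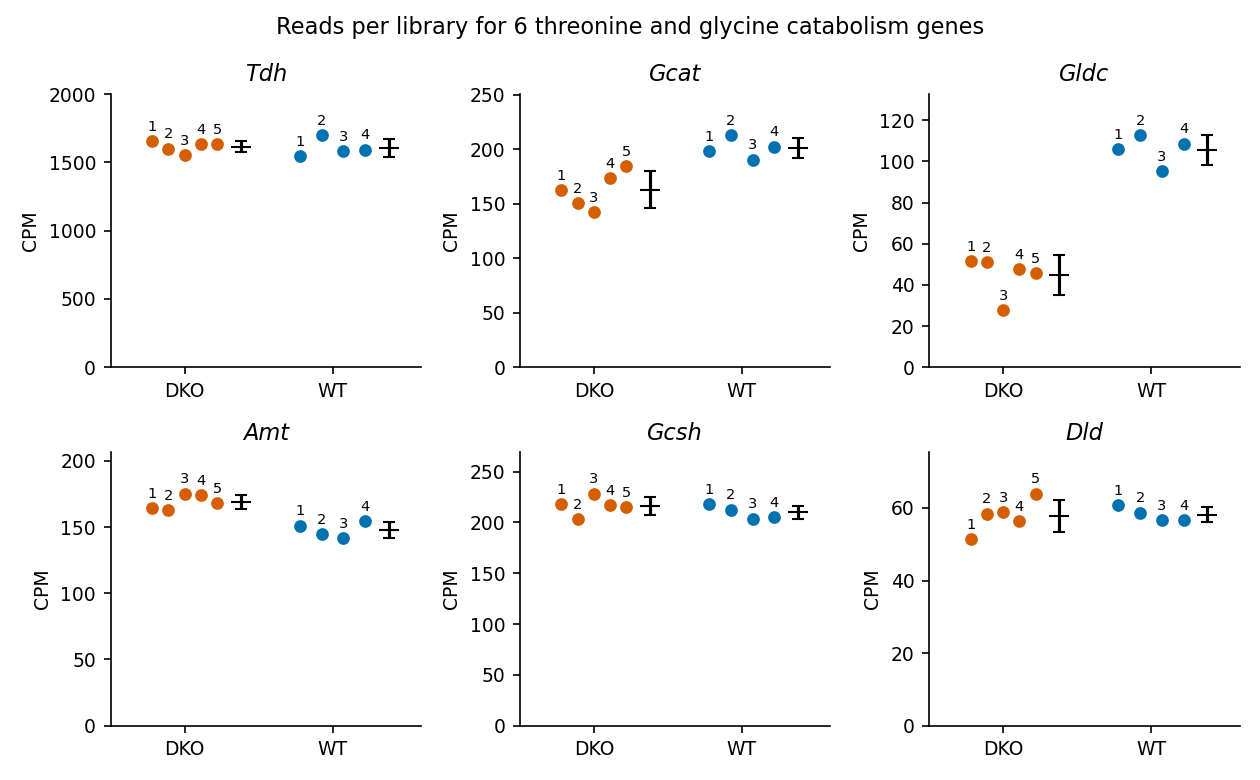
Level of each of the 6 genes in every library, in TMM-scaled CPM (y axes from 0), with libraries labelled DKO in orange on the left, WT in blue on the right, replicate numbers above the points and mean ± SD as black bars. Gldc is low in all 5 DKO libraries, lowest in DKO 3 at 27.7 CPM, while Tdh stays near 1600 CPM in both groups (1616 and 1605 CPM).

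Tdh (ENSMUSG00000021953, chromosome 14, 63492347 to 63509092, minus strand), which starts the pathway, was the most read of the 6 genes by a wide margin. It had 11084, 10215, 9460, 9676 and 10411 counts in DKO 1 to 5, against 10331, 11147, 10784 and 11212 in WT 1 to 4. Scaled for depth, the libraries labelled DKO lay inside the range of WT, at 1616 ± 40.7 CPM in the libraries labelled DKO and 1605 ± 66.1 CPM in WT (SD, n = 5 and 4). The log2 fold change was 0.01 ± 0.04 (SE, edgeR adjusted p = 0.877). Its 95% interval ran from -0.07 to 0.09, that is, from 0.949 to 1.07 times the WT level. Of all tested genes, 2.28% had a smaller fold change in size. Gm17232, an antisense gene that shares 66 exon bases with Tdh, had no read in any library.

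Gcat (ENSMUSG00000006378, chromosome 15, 79030874 to 79038353, plus strand), the next enzyme after Tdh, fell. It had 1087, 960, 865, 1028 and 1172 counts in DKO 1 to 5, against 1324, 1395, 1296 and 1424 in WT 1 to 4. The highest of the DKO libraries, DKO 5 at 184 CPM, lay below the lowest of WT, WT 3 at 190 CPM. Mean levels were 162 ± 17.0 CPM in the libraries labelled DKO and 201 ± 9.30 CPM in WT (SD, n = 5 and 4). On the log2 scale Gcat fell by 0.31 ± 0.06 (SE), with an adjusted p of 9.5e-05 by edgeR. DKO 4 and DKO 5 were the highest of their group, at 173 and 184 CPM, and DKO 1 to 3 lay between 142 and 163 CPM. Without DKO 4 and DKO 5 the log2 fold change was -0.40, a fit added after the data were seen. GENCODE lists a longer gene under the same symbol that shares 1132 exon bases with this one and has no row in the table, so how its reads were counted is not given. Within single libraries, reads on Gcat were 0.0914 to 0.113 of those on Tdh in the libraries labelled DKO and 0.120 to 0.128 in WT, so that the ratio, which needs no scaling, did not overlap between the groups.

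Gldc (ENSMUSG00000024827, chromosome 19, 30098447 to 30175429, minus strand), the decarboxylase that takes up glycine in the cleavage system, changed most of the 6. It had 344, 326, 169, 282 and 291 counts in DKO 1 to 5, against 707, 739, 648 and 764 in WT 1 to 4. Every DKO library lay below every WT library, and DKO 3 lay well below the other DKO libraries. Mean levels were 44.7 ± 9.79 CPM in the libraries labelled DKO and 106 ± 7.45 CPM in WT (SD, n = 5 and 4). Gldc fell by 57.5%, or by 1.24 ± 0.14 on the log2 scale (SE, adjusted p of 1.8e-05 by edgeR), with a 95% interval of -1.54 to -0.93. Of all tested genes, 4.46% had a lower log2 fold change. In DKO 3 Gldc stood at 27.7 CPM, against 45.7 to 51.4 CPM in the other 4. Without DKO 3 the log2 fold change was -1.11. The pseudogene Rpl31-ps20 lies within Gldc on the opposite strand, shares no exon base with it and had 0 to 2 reads in a library.

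Amt (ENSMUSG00000032607, chromosome 9, 108296853 to 108302302, plus strand), the T protein, rose by a small amount. It had 1098, 1039, 1067, 1031 and 1070 counts in DKO 1 to 5, against 1009, 949, 963 and 1087 in WT 1 to 4. After scaling, the lowest DKO library, DKO 2 at 163 CPM, lay above the highest WT library, WT 4 at 154 CPM. Mean levels were 169 ± 5.58 CPM in the libraries labelled DKO and 148 ± 5.85 CPM in WT (SD, n = 5 and 4). On the log2 scale Amt rose by 0.19 ± 0.05 (SE), with an adjusted p of 0.00286 by edgeR. The raw counts of the groups overlapped, so the gap between them rests on the scaling for depth, and 39.2% of tested genes had a smaller change in size.

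Gcsh (ENSMUSG00000034424, chromosome 8, 116981810 to 116993537, minus strand), the lipoyl-carrying H protein, had 1456, 1296, 1391, 1287 and 1370 counts in DKO 1 to 5, against 1457, 1395, 1387 and 1443 in WT 1 to 4. The groups overlapped, at 216 ± 8.99 CPM in the libraries labelled DKO and 210 ± 6.70 CPM in WT (SD, n = 5 and 4). The log2 fold change was 0.04 ± 0.05 (SE, edgeR adjusted p = 0.496), with a 95% interval of -0.06 to 0.15.

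Dld (ENSMUSG00000020664, chromosome 12, 31331277 to 31351453, minus strand), the L protein and the least read of the 6 in WT, had 344, 373, 358, 334 and 407 counts in DKO 1 to 5, against 406, 385, 385 and 399 in WT 1 to 4. Its levels overlapped, at 57.8 ± 4.51 CPM in the libraries labelled DKO and 58.2 ± 1.97 CPM in WT (SD, n = 5 and 4). The log2 fold change was -0.01 ± 0.07 (SE, edgeR adjusted p = 0.926). The 95% interval, -0.16 to 0.14, is the widest of the 3 genes that did not pass and allows levels from 0.897 to 1.10 times those of WT.

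**Figure D2:**
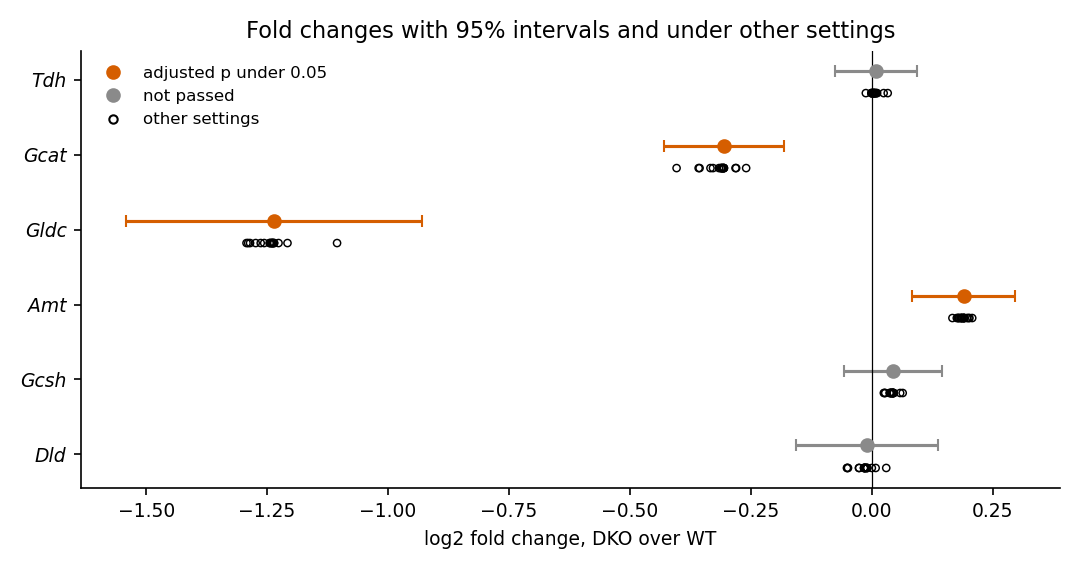
Log2 fold change of DKO over WT for the 6 genes (x axis), with the main edgeR estimate and its 95% interval as a filled point (orange where the adjusted p was under 0.05, grey where it was not) and the estimates under 18 other settings as open circles. Gldc lies between -1.29 and -1.11 under all of them, and Tdh, Gcsh and Dld lie within 0.07 of 0.

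The makeup of reads within the cleavage system differed between the groups. Of the reads on Gldc, Amt, Gcsh and Dld together, Gldc took 10.6%, 10.7%, 5.66%, 9.61% and 9.27% in DKO 1 to 5, against 19.8%, 21.3%, 19.2% and 20.7% in WT 1 to 4. The share of Gldc was thus lower in each DKO library than in any WT library, with DKO 3 the lowest. Amt took 34.6% ± 0.793 in the libraries labelled DKO and 28.4% ± 0.853 in WT, Gcsh 44.3% ± 1.48 and 40.3% ± 0.848, and Dld 11.8% ± 0.898 and 11.2% ± 0.266 (SD, n = 5 and 4). Shares add up to the whole, so a lower share of Gldc raises the others. Within single libraries, Gldc had 0.158 to 0.314 reads per Amt read in the libraries labelled DKO and 0.673 to 0.779 in WT. It had 0.121 to 0.252 reads per Gcsh read in the libraries labelled DKO and 0.467 to 0.530 in WT. The order of levels was Tdh, Gcsh, Amt, Gcat, Dld and Gldc in the libraries labelled DKO and Tdh, Gcsh, Gcat, Amt, Gldc and Dld in WT. In the libraries labelled DKO, Amt (163 to 175 CPM) and Gcat (142 to 184 CPM) overlapped, as did Dld (51.4 to 63.9 CPM) and Gldc (27.7 to 51.4 CPM), which met at a single value in DKO 1, where both had 344 counts. Neighbours in the WT order did not overlap, except that Gcsh (204 to 218 CPM) and Gcat (190 to 213 CPM) did.

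The 6 genes were also set beside the genes nearest to them on their chromosomes. Gcsh lies on chromosome 8 beyond Klf2, where 358 other genes were tested and 273 of them were called lower, with a median log2 fold change of -0.60. Before Klf2 the median of 304 genes was 0.42. Of the 358, 321 had a lower log2 fold change than Gcsh. Among its 20 nearest tested genes, 15 were lower and 1 was higher, with a median of -0.59 (-0.28 with no filter on low counts, where other genes of few reads are the nearest). For each library, the difference in log2(CPM + 0.5) between a gene and the median of its 20 nearest tested genes was then compared between groups by a 2-sided exact permutation test, over 126 divisions of the 9 libraries. For Gcsh that difference was 3.72 ± 0.0857 in the libraries labelled DKO and 3.04 ± 0.0706 in WT (SD, n = 5 and 4, exact p = 0.00794, the smallest it can give, BH 0.0159 over 6 genes). This comparison was added after the data were seen. Gcsh itself had a log2 fold change of 0.04, so its difference follows from the lower median of its neighbours, already given above, and is no separate finding. Of 11871 tested genes with 20 such neighbours, 25.2% reached the same smallest p, so that passing it sets no gene apart from the rest of the table.

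Gldc lay below all 20 of its nearest tested genes on chromosome 19, which had a median log2 fold change of 0.31, with 10 called higher and 1 lower. Its difference from their median was 1.85 ± 0.295 in the libraries labelled DKO and 3.28 ± 0.277 in WT (exact permutation p = 0.00794, BH 0.0159). Uhrf2, a ubiquitin ligase gene and the nearest of these, was at 72.7 CPM in the libraries labelled DKO and 41.8 CPM in WT, and it was picked after its values were seen. Amt also differed from its neighbours, by 2.55 ± 0.0289 in the libraries labelled DKO and 2.32 ± 0.0624 in WT (exact permutation p = 0.00794, BH 0.0159). For Tdh (exact p = 0.603), Gcat (exact p = 0.127) and Dld (exact p = 0.127) the permutation test did not pass, with BH values of 0.603, 0.152 and 0.152.

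**Figure D3:**
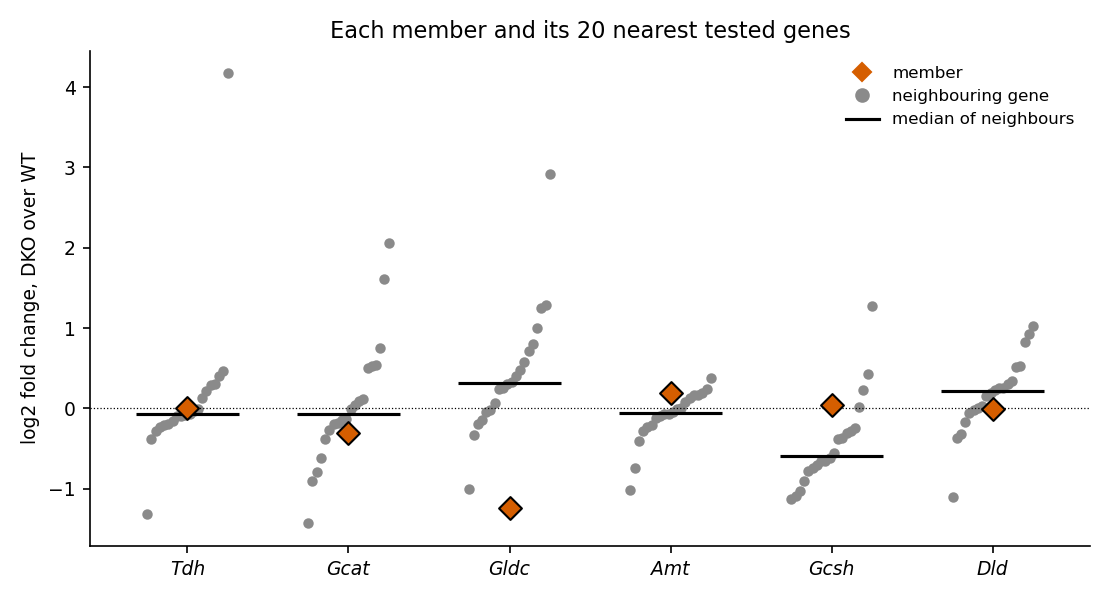
Log2 fold change of DKO over WT (y axis) for each of the 6 genes (orange diamond) and for the 20 tested genes nearest to it on its chromosome (grey points, sorted by value, with their median as a black line). Gldc lies below all 20 of its neighbours, and Gcsh lies above a neighbour median of -0.59.

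**Figure D4:**
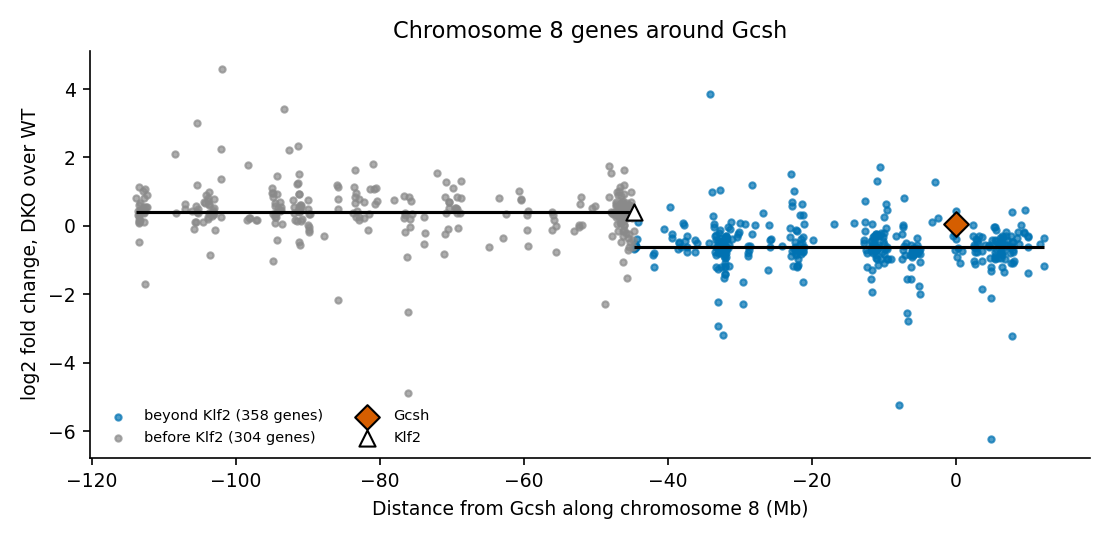
Log2 fold change of DKO over WT (y axis) for tested genes on chromosome 8 by their distance from Gcsh in Mb (x axis), grey before and blue beyond Klf2 (white triangle), with black lines at the medians of 0.42 and -0.60. Gcsh (orange diamond) stands at 0.04, above most genes beyond Klf2.

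Lists of related genes put these values in context. They were chosen with earlier results of these data known. Shares of called genes are to be read against the 47.8% of the whole table, rises against 23.9% and falls against 24.0%. Of 17 other enzymes that use threonine or glycine, 8 had enough reads, and by edgeR 5 fell and 0 rose (also 0 at an unadjusted p under 0.05 and 0 by DESeq2), with a median log2 fold change of -0.25. Sds, the serine and threonine dehydratase, had no read in any library, which allows up to 0.423 to 0.497 CPM in a library, and Tha1, a threonine aldolase of mice, had under 1 CPM in both groups. The glycyl and threonyl tRNA synthetase genes Gars (-0.41) and Tars (-0.25) fell, as did Alas1 (-0.47), which joins glycine to succinyl-CoA for haem, all as log2 fold changes. Dmgdh, which makes sarcosine from dimethylglycine, fell to 0.487 ± 0.497 CPM in the libraries labelled DKO, against 4.51 ± 1.26 CPM in WT (SD, n = 5 and 4).

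Genes of serine synthesis and folate carbon transfer went both ways. Of 22 listed, 21 were tested, 8 rose and 3 fell by edgeR, with a median log2 fold change of 0.04. Mthfd2, the mitochondrial folate dehydrogenase, fell to 148 ± 13.9 CPM in the libraries labelled DKO, against 267 ± 29.5 CPM in WT (SD, n = 5 and 4). Shmt2, which converts serine to glycine in mitochondria, fell to 142 ± 9.08 CPM, against 196 ± 8.91 CPM in WT. Folr1, a folate receptor, rose to 100.2 ± 7.03 CPM, against 68.6 ± 4.37 CPM in WT, and Aldh1l2, a mitochondrial formyl-folate dehydrogenase, rose to 4.69 ± 0.820 CPM, against 1.63 ± 0.598 CPM in WT. Shmt1, the cytosolic counterpart of Shmt2, rose by a log2 fold change of 0.22, a member picked after its value was seen. Mthfd1l (0.07) and Mtr (0.04), the methionine synthase gene, did not pass.

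Among 13 tested genes of methionine and S-adenosylmethionine, 1 rose and 6 fell by edgeR, with a median log2 fold change of -0.06. Bhmt2 (-2.99), a methyltransferase that remakes methionine, and Nnmt (-2.24), which methylates nicotinamide, fell, both under 10 CPM in each group. Srm (-0.26), the spermidine synthase gene, fell and Sms (0.46), the spermine synthase gene, rose, while Mtap (-0.01) and Mat2b (0.11) did not pass. The list had 3 falls without DKO 4, without WT 1, or without DKO 4 and DKO 5, and 2 rises without DKO 1.

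Of 17 tested genes of the 2-oxoacid dehydrogenase complexes, which share the L protein with glycine cleavage, 7 fell and 0 rose by edgeR (1 higher at an unadjusted p under 0.05 and 1 by DESeq2), with a median of -0.16. By edgeR 1 gene rose without DKO 1, DKO 4, WT 1 or WT 3, each left out alone, and 2 without WT 2. With no filter on low counts 1 gene rose too. Pdp2 (-1.21) and Pdpr (-0.86), of the phosphatase that activates pyruvate dehydrogenase, fell, and both lie on chromosome 8 beyond Klf2. Pdk1 (-0.59), a kinase that inactivates the same complex, and Pdha1 (-0.20), a subunit of it, fell too, while Pdhb (0.11) and Bckdk (-0.04) did not pass. Without DKO 4, Pdhb did pass (0.15, edgeR adjusted p = 0.0372). Of 14 lipoic acid genes, all tested, 5 fell and 0 rose by edgeR (0 at an unadjusted p under 0.05, 0 by DESeq2), with a median of -0.06. Lias, which makes the lipoyl group, fell to 87.0 ± 7.51 CPM in the libraries labelled DKO, against 105 ± 4.63 CPM in WT (SD, n = 5 and 4). Bola3 (-0.42) and Nfu1 (-0.25), which supply iron-sulfur clusters to Lias, and Fdxr (-0.32), a ferredoxin reductase, fell, while Glrx5 (-0.02) and Ndufab1 (0.11) did not pass. The Fdxr call was lost without DKO 4 and DKO 5 (edgeR adjusted p = 0.0556), and that fit left 3 falls in the list.

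Of 13 tested carriers of threonine, glycine or serine, 7 fell and 1 rose by edgeR, with a median log2 fold change of -0.35. The gene that rose, named after its value was seen, was Slc38a1 (0.15). Its call was lost without WT 1, and 2 genes rose without DKO 3, without WT 2, with no filter on low counts or by DESeq2. Slc7a5, the light chain of an exchanger of large neutral amino acids, fell to 88.2 ± 9.57 CPM in the libraries labelled DKO, against 382 ± 28.6 CPM in WT (SD, n = 5 and 4), and it lies on chromosome 8 beyond Klf2. Its partner chain Slc3a2 (-0.35), on chromosome 19, and Slc38a2 (-1.39), a sodium-coupled carrier, fell, as did Sfxn3 (-1.19), whereas Sfxn1 (-0.06), a mitochondrial serine carrier, did not pass. Of 12 tested purine synthesis genes, which use glycine and folate-bound carbon, 2 rose and 5 fell by edgeR (3 without DKO 4 and DKO 5), with a median of -0.11. Atic (-0.46), which adds a folate-bound formyl group, and Impdh1 (-0.84) fell, and Prps1 (0.24) and Prps2 (1.43), which make the ribose phosphate donor, rose. Gart (-0.10), whose product adds glycine during purine synthesis, and Paics (-0.08) did not pass.

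**Figure D5:**
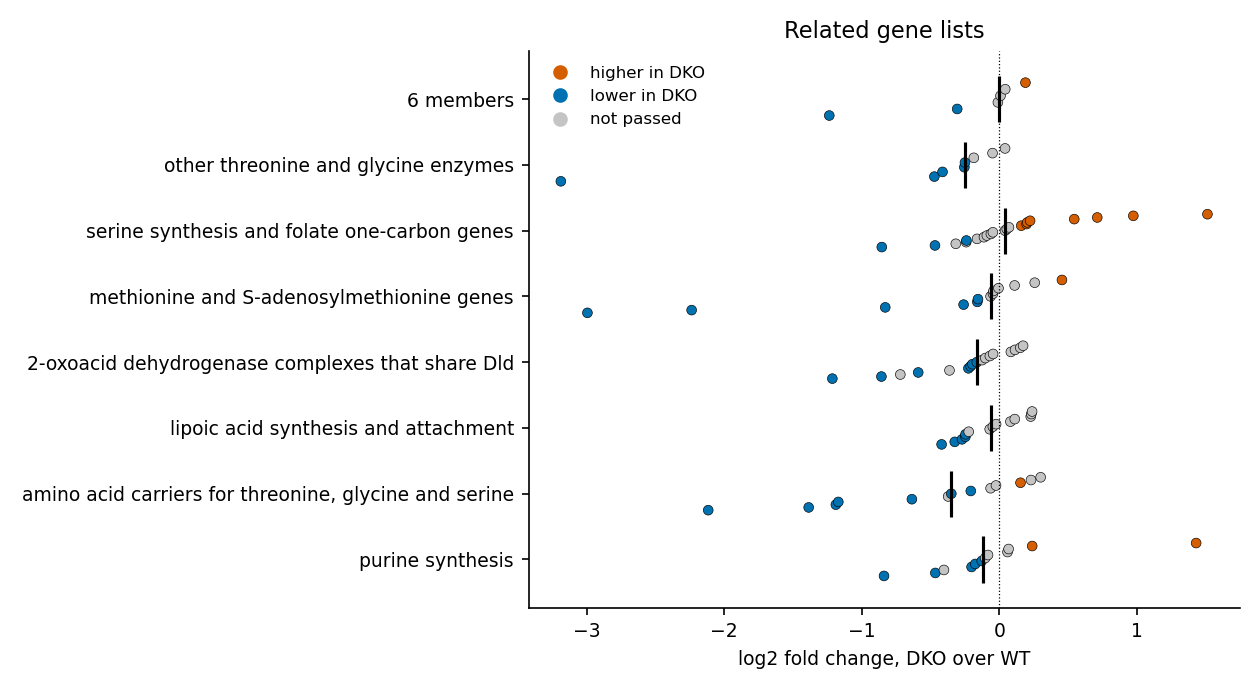
Log2 fold change of DKO over WT (x axis) for the 6 genes and 7 related lists (rows), with 1 point for each tested gene, coloured by its call (orange higher, blue lower, grey not passed), and black bars at list medians. The carriers have the lowest median, at -0.35, and the 6 genes a median of 0.00.

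Genes with the most similar pattern were those with the smallest root mean square difference in log2 CPM, after centring each gene on its mean over the 9 libraries, among 7879 other genes of at least 10 CPM. Gldc was nearest to Plekha4 (0.144) and Sh3pxd2a (0.148), which stood at 14.7 ± 2.10 and 13.4 ± 1.98 CPM in the libraries labelled DKO, against 36.8 ± 2.35 and 31.2 ± 2.21 CPM in WT. In both of them, as in Gldc, DKO 3 was the lowest library, at 11.2 CPM for Plekha4 and 9.85 CPM for Sh3pxd2a. Both were picked for following Gldc over these same libraries, so the shared low in DKO 3 is no separate finding. Gcat was nearest to Taf5l (0.0510) and Cox4i1 (0.0543), both on chromosome 8 beyond Klf2, and Amt to Arid1a (0.0334) and Prkar1a (0.0374). The nearest to Tdh were Cct3 (0.0340) and Lars (0.0359), those to Gcsh Usp34 (0.0274) and Zfp644 (0.0294), and those to Dld Pfdn5 (0.0474) and U2af1 (0.0502). All of these share the same 9 libraries. None of the genes nearest to Tdh, Gcsh and Dld passed the test, while those nearest to Gldc, Gcat and Amt did. Both follow from choosing genes by their likeness to each member, so neither is a separate finding.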

How the data were processed

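The authors deposited exon read counts per Ensembl gene for 9 libraries, not normalized, in 1 table of which every column was used. Build mm10 and the tools cutadapt, STAR, featureCounts and DESeq2 are named per the submitters' processing notes. Not given in the sources used here: tool versions, annotation release, strand setting and treatment of multi-mapped reads.

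Symbols and positions came from GENCODE M21 (mm10). Of 52550 identifiers, 52403 matched. Genes were kept by filterByExpr, scaled by TMM and tested with edgeR 4.0.16 (robust quasi-likelihood, R 4.3.3) on all 9 libraries, genotype label only, with Benjamini-Hochberg (BH) adjustment over all genes tested. Each SE was derived from the log2 fold change and the square root of F. The fit was tested on simulated data. DESeq2 1.42.0, other scalings and filters, left-out libraries and a replicate block were alternatives. A count of 3 in 1 library is 0.423 to 0.497 CPM. Floors cover counting error only.

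Named were all 6 members, up to 4 passing and 2 non-passing genes (at least 50 CPM) of each list, and the 2 most similar genes per member. Named outside this rule were Klf2 and Klf4, the single marker genes, Sds, Tha1 and the genes that overlap a member. Where still others are named, the text says so. Members and lists were chosen with earlier results of these data known.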

Additional observations from a re-analysis of the deposited data

Results flagged for a closer look

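A library stood far from the rest of its group, by Dixon's criterion, in 10 of 118 gene and group combinations looked at, where chance alone gives about 1 in 20 if groups are independent. These are not, since all genes share the same 9 libraries and some were chosen for tracking a member, so the 2 shares are not to be compared. Gldc was at 27.7 CPM in DKO 3, against 45.7 to 51.4 CPM in the other libraries labelled DKO. Sh3pxd2a, chosen for its similarity to Gldc, was also lowest in DKO 3, at 9.85 CPM, against 13.8 to 14.5 CPM. Paics was highest in DKO 3, at 581 CPM, Dmgdh in DKO 4, at 1.35 CPM, and U2af1 was lowest in DKO 1, at 60.1 CPM. Among WT libraries, Klf4 was lowest (775 CPM) and Lars highest (555 CPM) in WT 2, Fdxr (22.4 CPM) and Mat2b (84.1 CPM) were lowest in WT 4, and Usp34 was highest in WT 1 (227 CPM).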

How the results depend on the processing

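The calls of Gldc, Gcat and Amt, and the counts of 1 higher and 2 lower among the 6 genes, held under all 18 other settings (other scalings, filters and DESeq2, a fit without the robust option, each library left out, a replicate block, and DKO 4 and DKO 5 left out, the last added after the data were seen). Gldc ranged from -1.29 to -1.11, Gcat from -0.40 to -0.26 and Amt from 0.17 to 0.21 in log2 fold change. Gcsh ranged from 0.025 to 0.064. Tdh and Dld changed sign around 0 without passing. With single libraries left out they ran from -0.012 to 0.033 and from -0.050 to 0.030, and Tdh was -0.000425 without DKO 4 and DKO 5. Leaving out single libraries also moved Cct3 (-0.031 to 0.00065), Glrx5 (-0.064 to 0.014), Mtap (-0.043 to 0.021), Mtr (-0.0074 to 0.092), Pfdn5 (-0.0077 to 0.049), U2af1 (-0.0041 to 0.056) and Zfp644 (-0.0086 to 0.036) across 0. Pfdn5 and U2af1 were -0.0185 and -0.0101 without DKO 4 and DKO 5. Same-numbered libraries of the groups deviated together by r of 0.0103 to 0.0701 only, so no strong pairing by number was seen. Whether the numbers pair libraries more weakly cannot be told from these values. With the replicate block, which left out DKO 5, Gldc was -1.26, Pfdn5 -0.00745 and U2af1 -0.00367, and 5497 genes were called. Without DKO 5 but with no block Gldc was -1.24, Pfdn5 -0.0077 and U2af1 -0.0025, and 5263 genes were called. The main fit on all 9 libraries called 5689. Gart passed under 4 settings, among them DESeq2 (adjusted p = 0.0234). With no filter on low counts, the medians of the 20 nearest genes were 0.93 for Tdh, 0.017 for Gcat, -0.28 for Gcsh and 0.32 for Dld, and that of chromosome 8 before Klf2 was 0.39, since genes of few reads entered. With DESeq2 the medians near Tdh and before Klf2 were 0.060 and 0.39. Leaving out single libraries moved the median near Gcsh between -0.62 and -0.55. The lowest member count, 169 reads for Gldc in DKO 3, is far above the floor.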
